A study of Mus musculus with 37 samples.

Results

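The genes described here are Isl1 and 6 genes whose proteins assemble with LIM-domain transcription factors: Ldb1, Ldb2, Lmo4, Ssbp2, Ssbp3 and Ssbp4. They were picked out by symbol from a table of read counts for 25239 genes in embryonic mouse hearts. All 7 symbols were present, and all 7 were among the 15046 genes that passed a filter on low counts.

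Isl1 is a LIM-homeodomain transcription factor of the second heart field, the progenitor population that adds the outflow tract, the right ventricle and parts of the inflow region to the growing heart, and it stays active in the pacemaker region. Its LIM domains bind the adaptor proteins Ldb1 and Ldb2, which pair with themselves and so bring distant DNA sites together. Lmo4 is a LIM-only protein without a DNA-binding domain that binds the same adaptors, and the single-stranded DNA-binding proteins Ssbp2, Ssbp3 and Ssbp4 bind Ldb proteins and protect them from breakdown. Nipbl loads cohesin, the ring complex that extrudes chromosome loops.

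RNA of 37 hearts at E10.5 (mid-gestation) was sequenced in bulk, 1 library per embryo label. Fathers carried Stra8-iCre, a Cre recombinase active in male germ cells, and Nipbl Flox/+. The Flox allele is described as working and the FIN allele as null, and the + allele could be passed on too. Whether the Nipbl +/+ offspring carried a paternal + or Flox allele was not tested. Mothers were Isl1 Cre/+, with a Cre gene placed in 1 Isl1 allele. The offspring were Nipbl +/+; Isl1 +/+ (wild_type, n = 10), Isl1 +/- (Isl1_het, n = 9), Nipbl +/- (Nipbl_het, n = 9) and Nipbl +/-; Isl1 +/- (double_het, n = 9). The Isl1 +/- allele is the Cre allele, so Isl1_het and double_het hearts also carry a Cre driven from the Isl1 locus, and an effect of Cre cannot be told apart from the loss of an Isl1 allele. Where in Isl1 the Cre gene sits is not given in the sources used here, and whether transcripts of that allele still add to the Isl1 counts was not tested. Whether the maternal Cre acted on a paternal Flox allele was not tested either. Nipbl stood at 61.5 ± 5.88 CPM (read counts relative to the TMM-scaled library total, mean ± SD, n = 9) in Isl1_het and 60.0 ± 10.1 CPM (n = 10) in wild_type.

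Library totals ran from 23356831 to 38067819 counts in wild_type, from 33581153 to 50974736 in Isl1_het, from 31555358 to 46092831 in Nipbl_het and from 27993207 to 43032049 in double_het. The labels give a number here called the set: set 1 held wild_type and Isl1_het only, sets 2, 5 and 6 held all 4 genotypes, and set 7 held only double_het replicate 2, which the set term fits exactly, so that comparisons with double_het rest on 8 of its libraries. The library labelled Nipbl_het replicate 2 stood apart on the first principal component and had 72.4 CPM of Nipbl against 27.1 to 44.9 CPM in the other Nipbl_het libraries, which goes against its label. Nipbl ran from 47.6 to 78.8 CPM in wild_type, from 52.0 to 72.9 in Isl1_het and from 28.2 to 51.5 in double_het, and its log2 change against wild_type was −0.74 in Nipbl_het (SE 0.12, adjusted p = 0.000348) and −0.82 in double_het (SE 0.12, adjusted p = 7.19e-05, edgeR). The heart label held: the summed level of 10 cardiomyocyte markers ran from 31911 to 49408 CPM. Summed erythroid markers ran from 485 to 105601 CPM, and the 4 libraries above 40000 CPM were wild_type replicate 7, Isl1_het replicates 4 and 5 and double_het replicate 8, all of set 2. Liver markers summed to 365 CPM in Nipbl_het replicate 9 and to at most 19.3 CPM elsewhere. Whether replicates share litters is not stated, and p-values measure the spread between these libraries.

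In the GENCODE M21 annotation of GRCm38, Isl1 lies at chr13:116298281-116309689 on the minus strand and Ssbp2 at chr13:91460283-91703429 on the plus strand. Ldb1 lies at chr19:46031570-46045214 (minus), Ldb2 at chr5:44472132-44799680 (minus) and Lmo4 at chr3:144188530-144205220 (minus). Ssbp3 lies at chr4:106910701-107049694 (plus) and Ssbp4 at chr8:70597490-70608872 (minus). All 7 are protein-coding, and the counts cover their exons, UTRs included. Exons of Ldb1 overlap those of Pprc1 and exons of Ssbp2 overlap those of 4833422C13Rik, in each case on the opposite strand. Since the strand setting of the counting is not given in the sources used here, reads of these pairs may not have been told apart, and the values of Ldb1 and Ssbp2 carry that uncertainty.

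Members of one family could in principle trade reads, so their annotated transcripts were compared. No stretch of 30, 50 or 100 bases in a transcript of any of the 7 genes also occurred in a transcript of another. The longest coding stretches shared within the families are shown because they mark how short the common sequence is, with every letter in capitals because all of it is shared:
Ldb1 and Ldb2 (23 bases, the only run of that length): CAGGTACCTGATGTGATGGTGGT
Ssbp2 and Ssbp3 (20 bases, 1 of 3 such runs): GATGGGAAAAAAACATCACA
Ssbp3 and Ssbp4 (18 bases, the only run of that length): GCCCTCGGACGGGCAGGC
Ssbp2 and Ssbp4 (17 bases, 1 of 4 such runs): ATGAACATGGGTCCAGG
Isl1 shared at most 12 coding bases with any of the other 6 genes. Copies elsewhere in the genome were not compared.

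The stretch of 250 bases before the Isl1 start, at chr13:116309689-116309938 on the minus strand, is shown because Isl1 was the member whose counts differed between genotypes. It is taken from RefSeq on GRCm38.p6, where promoters of 6 of the 7 genes were found.
Isl1 promoter: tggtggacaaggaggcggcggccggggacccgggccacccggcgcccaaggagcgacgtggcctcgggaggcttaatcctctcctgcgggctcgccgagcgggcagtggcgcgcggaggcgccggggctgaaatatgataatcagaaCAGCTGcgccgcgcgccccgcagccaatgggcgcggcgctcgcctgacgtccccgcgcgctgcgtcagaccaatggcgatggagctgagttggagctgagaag
The capitals mark its single match to CANNTG, the letters of an E-box, a pattern that is its own reverse complement. The letters TAATTA, the core of many homeodomain sites, were searched on both strands and did not occur. AGATAA, one form of the letters bound by GATA factors, was searched in the same way and did not occur. Other forms were not searched, and the window holds TGATAA, which differs from AGATAA in its first letter. Of 32851 mouse promoter windows of the same length, 66.2% held CANNTG, 4.84% held TAATTA and 9.99% held AGATAA. The window is rich in G and C (71.2%) and holds 33 CG dinucleotides. These matches describe the letters only.

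Levels of different genes were compared as CPM per kilobase of exon. In wild_type the order was Ldb1 (32.5 ± 3.86 CPM per kb, SD, n = 10), Ssbp3 (24.7 ± 1.58), Lmo4 (20.8 ± 3.67), Ssbp4 (20.2 ± 2.28), Ssbp2 (6.26 ± 0.41), Isl1 (1.86 ± 0.57) and Ldb2 (1.44 ± 0.44). Lmo4 and Ssbp4 did not differ beyond their spread, and neither did Isl1 and Ldb2. The factor itself was thus measured at a small fraction of the level of its adaptor: Isl1 came to 5.66 ± 1.11 per 100 Ldb1 in wild_type, to 4.89 ± 1.46 in Isl1_het, to 10.1 ± 2.34 in Nipbl_het and to 7.48 ± 3.12 in double_het. These are bulk values over all cells of the heart, in which fewer expressing cells and less RNA per cell cannot be told apart.

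**Figure D1:**
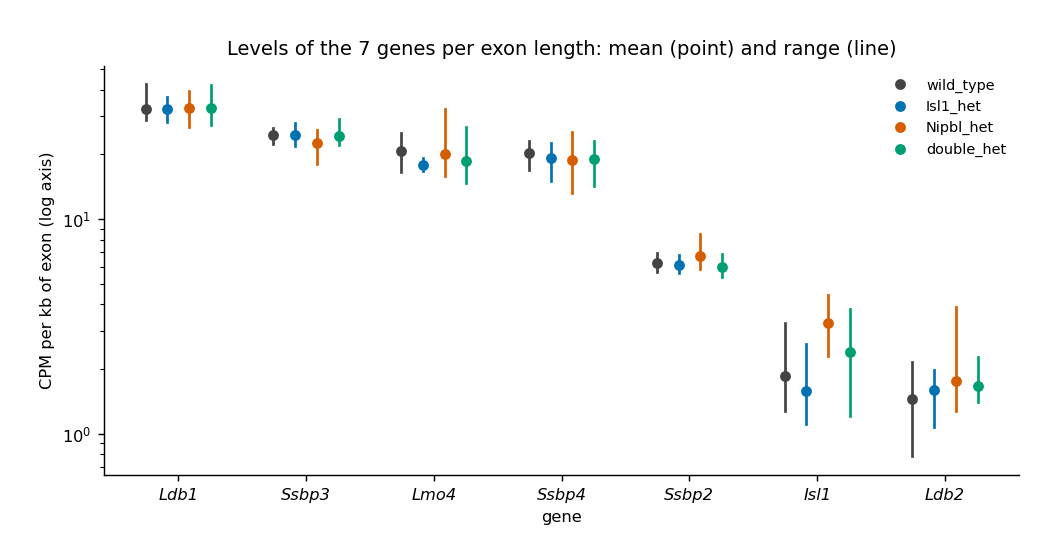
Levels of the 7 genes in CPM per kb of exon (log axis), with the mean as a point and the range over libraries as a line for each genotype (n = 10, 9, 9 and 9). Ldb1 is highest, Isl1 and Ldb2 lie lowest, and for Isl1 the Nipbl_het mean (3.29) stands above the wild_type mean (1.86).

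Within the adaptor pair, Ldb1 made up nearly all of the sum: the share of Ldb2 averaged 4.23% ± 1.09 in wild_type, 4.69% ± 0.85 in Isl1_het, 4.96% ± 1.67 in Nipbl_het and 4.89% ± 0.95 in double_het. The highest share, 9.04%, was that of the library labelled Nipbl_het replicate 2. Among the Ssbp genes, Ssbp3 held 48.3% ± 1.54 of the sum in wild_type, Ssbp4 39.4% ± 1.85 and Ssbp2 12.3% ± 0.77. In the other genotypes the mean shares lay between 47.0% and 49.4% for Ssbp3, between 38.3% and 38.8% for Ssbp4 and between 12.1% and 14.1% for Ssbp2. Lmo4, the LIM-only competitor, came to 64.4 ± 11.8 per 100 Ldb1 in wild_type, 54.9 ± 5.34 in Isl1_het, 61.1 ± 14.8 in Nipbl_het and 56.8 ± 6.82 in double_het. The sum of Ldb1 and Ldb2 per 100 of the Ssbp sum was 66.5 ± 6.62 in wild_type, 68.8 ± 6.77 in Isl1_het, 73.1 ± 14.3 in Nipbl_het and 69.8 ± 5.37 in double_het. Its highest value, 109, was that of the library labelled Nipbl_het replicate 2.

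Isl1 itself was the one member that passed the test in any comparison between genotypes. Isl1 ran from 5.03 CPM (wild_type replicate 4) through a median of 6.82 to 13.0 CPM (replicate 7) in wild_type. In Isl1_het it ran from 4.38 through 5.80 to 10.4 CPM. In Nipbl_het it ran from 9.11 through 12.5 to 17.5 CPM, and in double_het from 4.80 through 8.47 to 15.1 CPM. The lowest Nipbl_het library thus lay above every wild_type library but replicate 7, whose next lower neighbour was at 8.81 CPM, and the other 3 groups overlapped along most of their range. Raw Isl1 counts behind these values were 127 to 343 in wild_type and 358 to 869 in Nipbl_het.

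**Figure D2:**
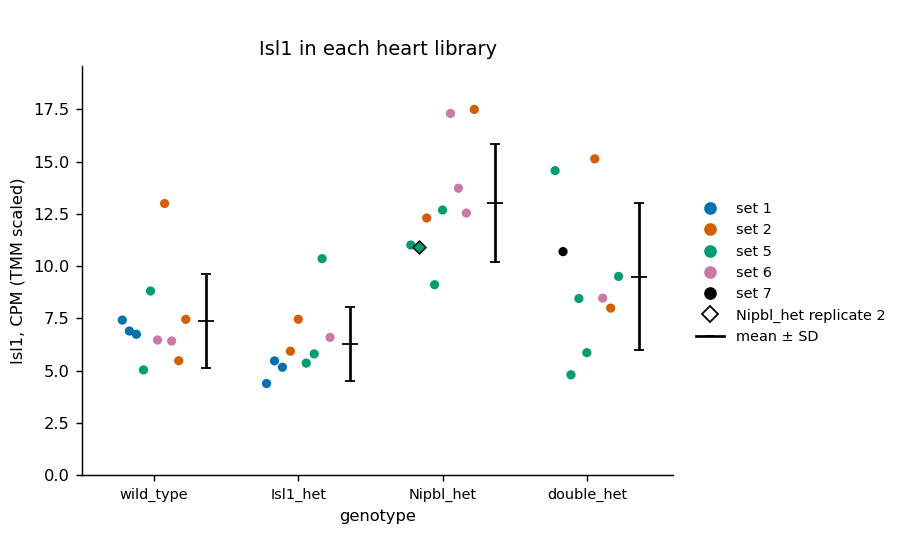
Isl1 in CPM after TMM scaling (vertical axis) in each of the 37 libraries by genotype, coloured by set, with mean ± SD at the right of each group. All 9 Nipbl_het libraries, from 9.11 to 17.5 CPM, lie above the wild_type mean of 7.37, and the library labelled Nipbl_het replicate 2 (diamond) lies inside its group at 10.9.

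Against wild_type, where 1.71% of all genes tested passed (1.2% higher and 0.518% lower), Isl1 rose in Nipbl_het by a log2 change of 0.79 (SE 0.19, 95% interval 0.39 to 1.18, 1.72-fold, adjusted p = 0.0252, Benjamini-Hochberg over all genes, edgeR's quasi-likelihood F-test). The difference of mean log2 CPM was 0.85 within set 2, 0.70 within set 5 and 1.15 within set 6, so Isl1 was higher in each set that held both genotypes. Without the library labelled Nipbl_het replicate 2 it was 0.81 (adjusted p = 0.0190), and without the 4 libraries rich in erythroid RNA 0.87 (adjusted p = 0.0194). The call did not hold without set 1 (0.85, adjusted p = 0.0581), set 2 (0.77, 0.180) or set 6 (0.62, 0.188). It was also lost when wild_type replicate 4, 6, 8 or 9 or Nipbl_het replicate 9 was left out, with log2 changes from 0.72 to 0.74 and adjusted p from 0.0547 to 0.0740.

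Averaged over both Isl1 genotypes, the Nipbl effect on Isl1 was 0.65 (SE 0.15, 1.57-fold, adjusted p = 0.00655, edgeR), where 4.02% of genes passed (2.67% higher and 1.36% lower). It passed in all 37 fits that left out 1 library, with changes from 0.58 to 0.76, and failed without set 2 (0.59, adjusted p = 0.113) and without set 6 (0.57, adjusted p = 0.0925). Nipbl_het enters both this value and the one before it, so they are not independent. On the Isl1_het background alone, double_het lay above Isl1_het by 0.52 (SE 0.20, interval 0.11 to 0.92, unadjusted p = 0.0145, adjusted p = 0.379, edgeR), where 0.957% of genes passed (0.532% higher and 0.425% lower). This difference was 0.72 in set 2 (2 libraries against 2), 0.22 in set 5 (5 against 3) and 0.36 in set 6 (1 against 1). The Nipbl effect was thus called on one Isl1 background and not on the other, and the difference between them, the interaction, was −0.27 (SE 0.26, adjusted p = 0.999), so a difference was not shown. The interaction called 0% of genes, with 411 at an unadjusted p under 0.05 and 0 by DESeq2.

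The Isl1 +/- genotype, described as haploinsufficient for Isl1, did not pass the test at the level of Isl1 counts. Isl1_het lay below wild_type by 0.20 on the log2 scale (log2 change −0.20, SE 0.18, interval −0.57 to 0.18, adjusted p = 0.877, edgeR). In this comparison 0% of genes were called, with 886 at an unadjusted p under 0.05 and 11 past the threshold by DESeq2. Of the 9 Isl1_het libraries, 7 were below the wild_type mean and 1 was below every wild_type library. The within-set differences were −0.49 in set 1, −0.28 in set 2, 0.04 in set 5 and 0.03 in set 6, which held 1 Isl1_het library. In set 5 the Isl1_het values were 5.36, 5.80 and 10.4 CPM, the last in replicate 8. Leaving out 1 library moved the change between −0.32 (without Isl1_het replicate 8) and −0.11 (without wild_type replicate 7), and the other alternatives between −0.33 (without set 5) and −0.06 (without set 1), with none past the threshold. On the Nipbl_het background double_het lay below Nipbl_het by −0.47 (SE 0.19, unadjusted p = 0.0223, adjusted p = 0.518), with 0% of genes called, 1355 at an unadjusted p under 0.05 and 0 by DESeq2. Averaged over both Nipbl backgrounds the Isl1 effect on Isl1 was −0.33 (SE 0.14, unadjusted p = 0.0196, adjusted p = 0.321), where 0.173% of genes passed (0.146% higher and 0.0266% lower). A library could not be assigned an Isl1 genotype from its Isl1 count, since the groups overlapped, and the labels were taken as given.

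The double_het mean of Isl1 stood between those of the single heterozygotes. Isl1 in double_het was 0.32 above wild_type (SE 0.20, interval −0.09 to 0.73, adjusted p = 0.591, edgeR), where 2.6% of genes passed (1.77% higher and 0.824% lower). Their count of 391 was 839 without the library labelled Nipbl_het replicate 2 and 244 without double_het replicate 4. Of 9 double_het libraries, 7 were above the wild_type mean, 2 were above every wild_type library (replicates 1 and 6, at 14.6 and 15.1 CPM) and 1, replicate 3 at 4.80 CPM, was below every one. The spread was 9.50 ± 3.51 CPM (mean ± SD, n = 9) in double_het, against 13.0 ± 2.82 in Nipbl_het and 6.28 ± 1.76 in Isl1_het (n = 9 each) and 7.37 ± 2.24 in wild_type (n = 10).

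Ldb1, the main adaptor, kept nearly the same level in the 4 genotypes. It ran from 132 through a median of 148 to 195 CPM in wild_type, from 130 through 148 to 171 in Isl1_het, from 123 through 148 to 181 in Nipbl_het and from 126 through 146 to 194 in double_het. The groups overlapped almost wholly. Log2 changes against wild_type were 0.03, 0.07 and 0.07 in Isl1_het, Nipbl_het and double_het, with 95% intervals that together ran from −0.09 to 0.21. Ldb1 did differ between sets (adjusted p = 0.00210, F-test over the set terms of the same fit), as did 38.2% of all genes. Its mean was 171 CPM in set 2 and 141 to 149 CPM in sets 1, 5 and 6, and among wild_type hearts alone it was 165 CPM in set 2 and 136 to 149 CPM in the others. That 165 CPM includes wild_type replicate 7 at 195 CPM, while wild_type replicates 9 and 10 of set 2 were at 148 and 153 CPM. The libraries richest in erythroid RNA are all in set 2, and their part in this difference was not tested.

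Ldb2, the minor adaptor, was measured at low counts, from 85 to 477 per library. It ran from 2.61 through 4.74 to 7.23 CPM in wild_type, from 3.596 through 5.26 to 6.62 in Isl1_het, from 4.23 through 5.01 to 13.0 in Nipbl_het and from 4.68 through 5.26 to 7.59 in double_het. The value of 13.0 CPM belongs to the library labelled Nipbl_het replicate 2, and the next highest of its group was at 5.70 CPM. The log2 change in Nipbl_het was 0.16 (SE 0.18, adjusted p = 0.692) with that library and −0.05 (SE 0.13, adjusted p = 0.926) without it. In Isl1_het and double_het the changes were 0.16 and 0.02, with intervals from −0.18 to 0.49 and from −0.35 to 0.39.

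Lmo4, the LIM-only protein that competes for the adaptors, ran from 58.5 through 72.02 to 89.0 CPM in wild_type. In Isl1_het it lay within 59.2 to 67.5 CPM around a median of 62.5. In Nipbl_het it ran from 56.1 through 65.1 to 115 CPM and in double_het from 51.7 through 64.7 to 94.5 CPM. All 9 Isl1_het libraries were below the wild_type mean of 73.4 CPM, yet none was below every wild_type library, and their coefficient of variation was 3.76% against 17.6% in wild_type. The log2 change in Isl1_het was −0.20 (SE 0.11, interval −0.42 to 0.03, unadjusted p = 0.0804, adjusted p = 0.839, edgeR). In Nipbl_het and double_het it was −0.04 and −0.13, neither past the threshold.

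Ssbp2, with the least abundant RNA of the Ssbp genes, ran from 45.4 through 49.3 to 55.2 CPM in wild_type and from 44.7 through 48.7 to 54.0 in Isl1_het. In Nipbl_het it ran from 46.6 through 51.2 to 67.6 CPM, with the top value again in the library labelled Nipbl_het replicate 2, and in double_het from 42.8 through 47.2 to 54.9 CPM. Log2 changes against wild_type were −0.04, 0.11 and −0.04, and the intervals together ran from −0.18 to 0.24. Its difference between double_het and Nipbl_het, −0.15, had the smallest unadjusted p of any partner gene in the 8 comparisons (0.0221, adjusted p = 0.517, edgeR).

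Ssbp3 had the most abundant RNA of the 3 Ssbp genes. It ran from 148 through 163 to 175 CPM in wild_type, from 144 through 160 to 184 in Isl1_het, from 118 through 153 to 171 in Nipbl_het and from 146 through 155 to 192 in double_het. In Nipbl_het 4 of 9 libraries were below every wild_type library, with a log2 change of −0.06 (SE 0.06, interval −0.18 to 0.05, adjusted p = 0.609). Ssbp4 ran from 53.4 through 64.4 to 73.2 CPM in wild_type, from 47.6 through 60.4 to 71.4 in Isl1_het, from 41.9 through 54.0 to 80.6 in Nipbl_het and from 45.0 through 61.0 to 73.3 in double_het. Its changes against wild_type were −0.08, 0.02 and 0.03. The library labelled Nipbl_het replicate 2 had the lowest Ssbp3 and the lowest Ssbp4 of all 37 libraries, at 118 and 41.9 CPM. Both genes differed between sets (adjusted p = 0.0217 for Ssbp3 and 0.00102 for Ssbp4, F-test over set terms), with Ssbp4 at 68.7 and 69.3 CPM in sets 1 and 2 and 57.6 and 53.1 CPM in sets 5 and 6. Among wild_type hearts alone Ssbp4 was at 67.3, 68.1, 61.8 and 54.4 CPM in sets 1, 2, 5 and 6.

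**Figure D3:**
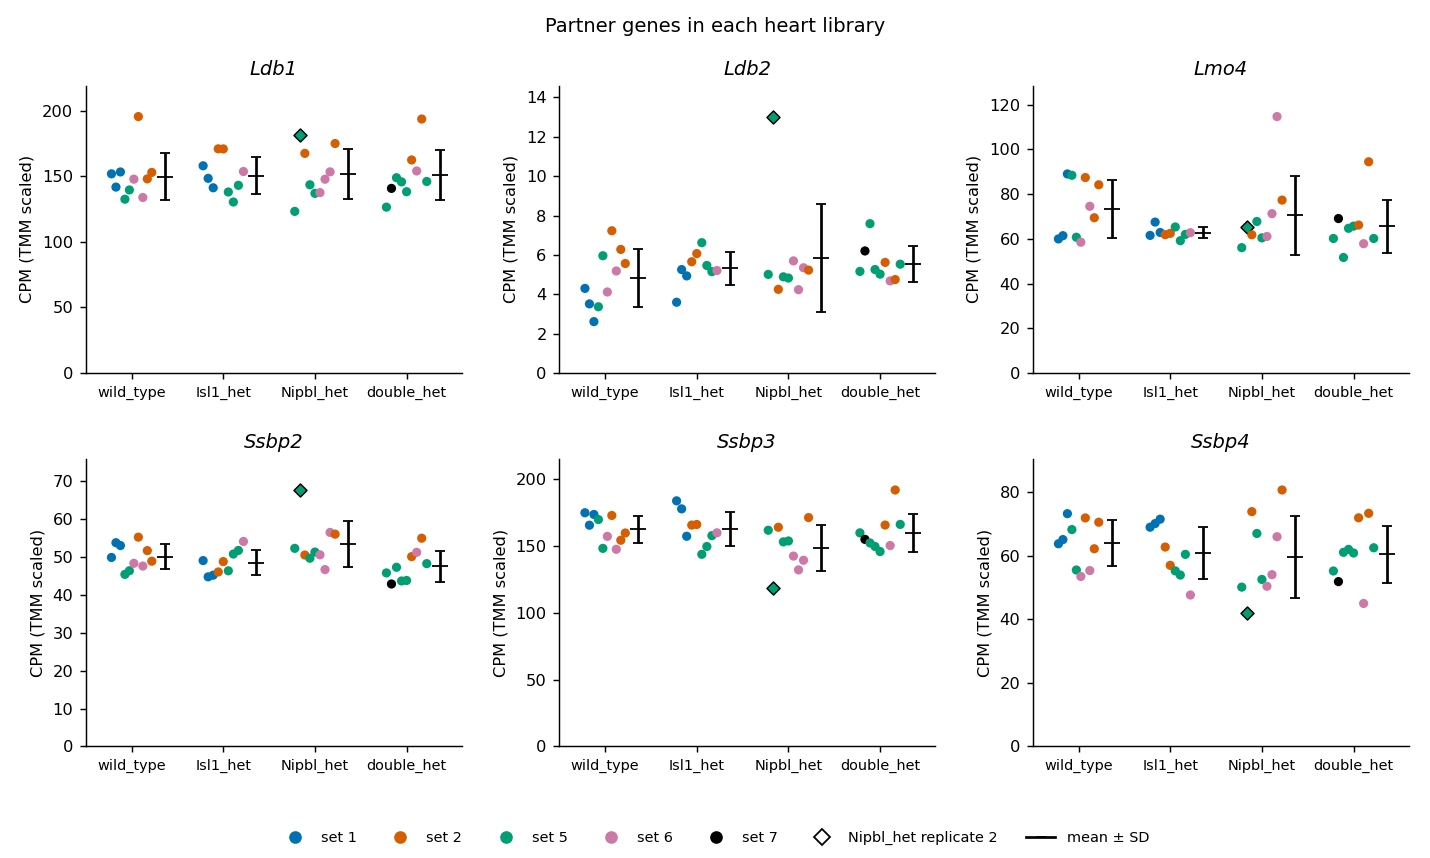
CPM after TMM scaling of the 6 partner genes in each library by genotype, coloured by set, with mean ± SD at the right of each group. The genotypes overlap for all 6 genes, and the library labelled Nipbl_het replicate 2 (diamond) is highest for Ldb2 (13.0) and Ssbp2 (67.6) and lowest for Ssbp3 (118) and Ssbp4 (41.9).

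Across the 8 comparisons, in which 0% to 4.02% of all genes passed, none of the 6 partner genes passed the threshold. The test of the set effect in the same fit passed for Ldb1, Ssbp3 and Ssbp4 and not for Isl1 (adjusted p = 0.401), Ldb2 (0.129), Lmo4 (0.466) or Ssbp2 (0.671). This count of 3 of 7 is near the share over all genes, 38.2%. The partners' intervals also bound what could have been missed. For Ldb1, Ssbp2, Ssbp3 and Ssbp4 the 3 changes against wild_type all had intervals within 0.24 of zero on the log2 scale. The intervals for Ldb2 reached 0.52 and those for Lmo4 −0.42.

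**Figure D4:**
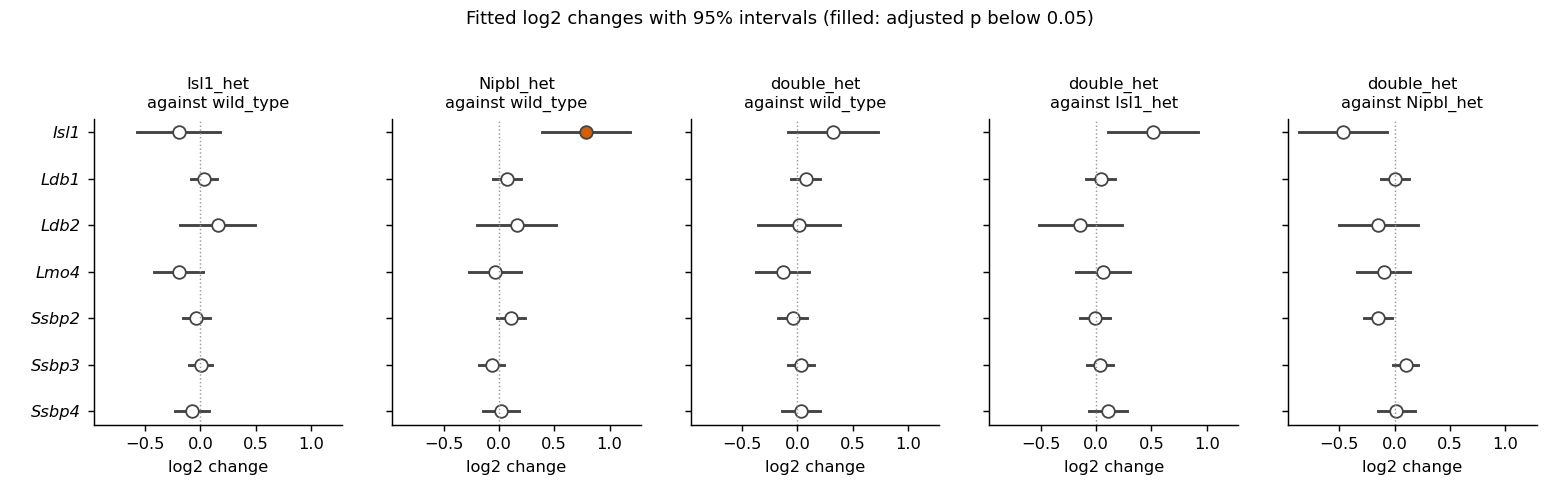
Fitted log2 changes (points) with 95% intervals (lines) of the 7 genes in 5 comparisons from the fit over all 37 libraries. The single filled point, Isl1 in Nipbl_het against wild_type at 0.79, is the one past an adjusted p of 0.05 among these.

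Other genes of the pathway were counted by list. Of 11 other LIM-homeodomain genes, which compete for the same adaptors, 7 could be tested. In Isl1_het 0 passed, as did 0% of all genes, and all 7 had a change above zero (median 0.39, against 0.00 over all genes). In Nipbl_het 0 passed, where 1.71% of all genes did, and 6 were above zero (median 0.65, against 0.01). In double_het all 7 were above zero (median 0.88, against 0.00 over all genes) and 1 passed, Lhx9, a factor of the epicardium and gonad, at 0.60 (SE 0.16, adjusted p = 0.0345), where 2.6% of all genes passed. In the same comparison 5 of 7 epicardial markers passed, all higher (list median 0.51), and their sum had a median of 634 CPM in double_het and 411 CPM in wild_type. This sum was not adjusted for set. Over all genotypes its median was 323 CPM in set 1, which held no double_het library, and 489, 513 and 505 CPM in sets 2, 5 and 6. The part of the epicardial markers in the Lhx9 value was not tested. Apart from Lhx9 and Lmx1a these genes had a mean under 1 CPM in wild_type, and all 11 together summed to 7.77 to 19.7 CPM there, except in wild_type replicate 7, the library richest in erythroid RNA, at 53.8 CPM. The other 3 erythroid-rich libraries were also high, with Isl1_het replicates 4 and 5 at 40.6 and 33.8 CPM and double_het replicate 8 at 41.0 CPM, and the library with the least erythroid RNA, that labelled Nipbl_het replicate 2, was lowest of all 37 at 6.06 CPM. Erythroid markers were above zero in 7 of 7 tested in Isl1_het (median 0.61) and in double_het (median 0.71) and in 0 of 7 in Nipbl_het (median −0.80), with 0 called, so in Nipbl_het the medians of both lists had opposite signs. Their part in the LIM-homeodomain values was not tested. Of 7 other LIM-only genes and of 10 genes of Ldb turnover and known LDB1 complexes, such as Rlim, the ubiquitin ligase that marks Ldb proteins for breakdown, 0 passed in any of the 8 comparisons, in which 0% to 4.02% of all genes passed. The list medians stayed between −0.12 and −0.02 for the first and between −0.06 and 0.14 for the second.

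Of 18 Isl1 cofactors and reported cardiac targets, 17 were tested and 1 passed: Tbx1, a T-box factor of the second heart field, rose by 1.38 in Nipbl_het (SE 0.35, adjusted p = 0.0322) and by 1.37 in double_het (SE 0.37, adjusted p = 0.0348), from a wild_type mean of 0.722 CPM. Of all genes tested, 1.71% passed in Nipbl_het and 2.6% in double_het. In Isl1_het 0 of the 17 passed, as did 0% of all genes. Fgf10 and Mef2c, often described as direct targets of Isl1 and named here after their values were seen, had changes of 0.48 (adjusted p = 0.400) and 0.03 (adjusted p = 0.898) in Nipbl_het. The list median was 0.09 in Nipbl_het and −0.09 in double_het, against 0.01 and 0.00 over all genes.

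Markers of the tissues that normally express Isl1 were set beside its rise in Nipbl_het. Among 16 second heart field and pharyngeal markers, 2 passed there, Tbx1 among them, both higher, where 1.2% of all genes were called higher. Of the 16, 12 were above zero (median 0.37, against 0.01 over all genes). The list's summed level was 161 to 195 CPM in Nipbl_het and 150 to 189 CPM in wild_type. The median of that sum was lower in Nipbl_het (173 CPM) than in wild_type (180 CPM). Of 9 sinus venosus and pacemaker markers 0 passed, 7 were above zero (median 0.24), and the sum ran from 250 to 441 CPM in Nipbl_het (median 423) and from 245 to 388 CPM in wild_type (median 295). The 250 CPM was that of the library labelled Nipbl_het replicate 2, and the other 8 ran from 379 to 441 CPM. The sums given here were not adjusted for set. Over all genotypes the median of the sinus venosus and pacemaker sum was 294 CPM in set 1, which held no Nipbl_het library. It was 349, 327 and 409 CPM in sets 2, 5 and 6. Shox2, a factor of the pacemaker region, was at 1.32 (SE 0.41, adjusted p = 0.0953). Of 12 neuron and neural crest markers 8 were tested and 0 passed, with sums over the 12 of 53.1 to 82.6 CPM in Nipbl_het and 54.4 to 95.1 CPM in wild_type, and the ganglion factor Neurog1 and the motor neuron factor Mnx1 were at 0 in every library of all 4 genotypes. Of 7 epicardial markers, all 7 above zero (median 0.23), 1 passed against the same 1.2% of all genes, Wt1 at 0.31 (SE 0.07, adjusted p = 0.0178). Of 7 tested erythroid markers 0 passed and all 7 were below zero (median −0.80), with sums of 485 to 23045 CPM in Nipbl_het and 1847 to 105601 CPM in wild_type. Of 4 tested liver markers 0 passed and all 4 were above zero (median 1.85), with a sum of 365 CPM in Nipbl_het replicate 9 and 0.993 to 10.54 CPM in the other 8 libraries. None of 10 cardiomyocyte (2 above zero, median −0.15), 8 endothelial (4 above zero, median −0.02) or 4 tested endodermal markers (3 above zero, median 0.17) passed in Nipbl_het. Shox2 and Wt1 were named after their values were seen, and the part of any of these tissues in the Isl1 values was not tested.

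Variation between hearts of one genotype and set was examined on residual log2 CPM of 36 libraries, with genotype and set removed. No relation of Isl1 with its 6 partners passed: Spearman's rho ran from −0.15 (Ssbp4) to 0.24 (Ssbp2), Pearson's r from −0.04 to 0.15, and the smallest adjusted p among the 6 Isl1 pairs, adjusted over all 21 pairs of members, was 0.602 (permutation test, 100000 resamples, two-sided). Lmo4 and Ssbp4 varied together, with r = 0.56 (adjusted p = 0.00490) and rho = 0.57 (adjusted p = 0.00567, permutation test), and r was 0.48 without the 2 libraries farthest from the median. Ldb1 and Ssbp2 had r = 0.59 and rho = 0.46 (adjusted p = 0.00357 and 0.0407), with r = 0.32 without the 2 farthest. Ldb2 and Ssbp3 had r = −0.63 and rho = −0.49 (adjusted p = 0.00273 and 0.0317), with r = −0.34 without the 2 farthest. Without the library labelled Nipbl_het replicate 2 the last pairs kept their sign but did not pass. Their rho was then 0.39 (adjusted p = 0.115, permutation test) for Ldb1 and Ssbp2 and −0.33 (adjusted p = 0.195) for Ldb2 and Ssbp3. Lmo4 and Ssbp4 had a rho of 0.66 without it (adjusted p = 0.000840). Ldb2 and Ssbp4 passed by r alone (−0.46, adjusted p = 0.0348), with r = −0.07 without the 2 farthest.

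Marker sums moved with some of the partners. Over 63 relations of the 7 genes with 9 marker lists, Ldb1 went against endothelial markers (r = −0.54, rho = −0.57, adjusted p = 0.0132 and 0.0164, permutation test) and Ssbp2 did the same (r = −0.56, rho = −0.56, adjusted p = 0.0122 and 0.0164), with r = −0.51 for each without the 2 farthest libraries. Ldb1 went with erythroid markers by rank (rho = 0.54, adjusted p = 0.0164) and not by r (0.38, adjusted p = 0.0930). Relations that passed by r and not by rho were those of Lmo4 with endothelial markers (r = −0.56, adjusted p = 0.0122; rho = −0.27, adjusted p = 0.290) and with cardiomyocyte markers (r = 0.47, adjusted p = 0.0398; rho = 0.39, adjusted p = 0.127). The same held for Ssbp2 with endodermal markers (r = 0.50, adjusted p = 0.0279; rho = 0.28, adjusted p = 0.266) and Ssbp3 with erythroid markers (r = 0.46, adjusted p = 0.0419; rho = 0.41, adjusted p = 0.123). Without the 2 farthest libraries their r was −0.33, 0.56, 0.34 and 0.38 in that order. Ssbp3 went with sinus venosus and pacemaker markers (r = 0.62, rho = 0.51, adjusted p = 0.00504 and 0.0224), with r = 0.45 without the 2 farthest libraries. It also went with neuronal markers (r = 0.49, rho = 0.49, adjusted p = 0.0279 and 0.0286), with r = 0.41 without the 2 farthest. For Isl1 no relation passed, the nearest being that with cardiomyocyte markers (r = −0.42, rho = −0.38, adjusted p = 0.0560 and 0.138), with r = −0.27 without the 2 farthest libraries. With second heart field and pharyngeal markers Isl1 had r = 0.22 and rho = 0.30 (adjusted p = 0.455 and 0.253), and r was 0.46 and rho 0.45 without wild_type replicate 7 and the library labelled Nipbl_het replicate 2, the 2 farthest.

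The genes that varied most like Isl1 were outside the LIM complexes. Among 12079 genes whose log2 CPM averaged 1 or more, ranked by Spearman's rho over the same 36 libraries, the first 6 were Rgs5 (0.86), Col9a1 (0.77), Psd (0.73), Cacng7 (0.71), Eln (0.69) and Pcdh18 (0.69). Rgs5, a regulator of G-protein signalling known from pericytes, had r = 0.79, and rho was 0.86 without the library labelled Nipbl_het replicate 2 and 0.83 without the 2 farthest libraries. Eln encodes elastin and Col9a1 a chain of type IX collagen. The libraries behind these values share their depth and scaling, and the ranking is a description. Among the partners, Ssbp2 stood at position 1076, Ssbp3 at 3854 and Ldb2 at 3888. The main adaptor, Ldb1, was at position 6277, Lmo4 at 6917 and Ssbp4 at 9324. The ranked Isl1 cofactors and reported targets were spread widely, from Bmp4 at position 20 and Tbx20 at 183 to Shox2 at 9096 and Nkx2-5 at 11659. These genes were named after their values were seen. The highest Rgs5 level in wild_type was 50.6 CPM, with a mean of 21.4 ± 11.7.

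None of these 6 genes passed the test in any of the 8 comparisons, in which 0% to 4.02% of all genes passed. Rgs5 stood at 25.3 ± 15.9 CPM in Nipbl_het, with a log2 change of 0.22 (SE 0.41, adjusted p = 0.832), and at 34.9 ± 18.2 CPM in Isl1_het, with a change of 0.71 (SE 0.38, adjusted p = 0.837). Eln had changes of −0.07 (SE 0.27) in Nipbl_het and 0.70 (SE 0.25, adjusted p = 0.741) in Isl1_het. The values for Isl1 in the same comparisons were 0.79 and −0.20, so the order of the genotypes for Rgs5 and Eln was not that for Isl1.

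**Figure D5:**
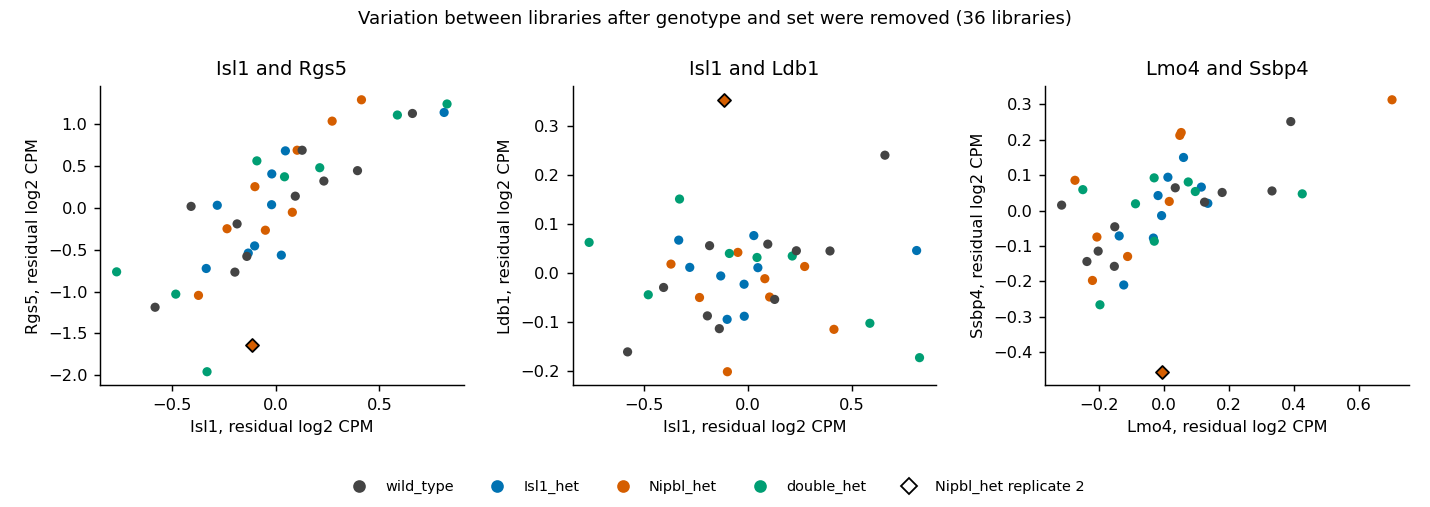
Residual log2 CPM after removal of genotype and set in 36 libraries, coloured by genotype, for Isl1 with Rgs5, Isl1 with Ldb1 and Lmo4 with Ssbp4. Over the 36 libraries together, Isl1 and Rgs5 rise together (rho 0.86), Isl1 and Ldb1 do not (rho −0.02), and Lmo4 and Ssbp4 do (rho 0.57).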

How the data were processed

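Bulk RNA of 37 mouse hearts was sequenced. Per the labels' protocols, RNA was extracted with a Monarch kit and libraries were made with a NEBNext Ultra II kit. The authors deposited raw counts per gene. The submitters' processing notes name STAR, featureCounts and GRCm38 (mm10); versions, annotation, strand setting and parameters are not given in the sources used here. The 37 columns all matched a sample.

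From these counts, genes were filtered by filterByExpr (minimum count 10, total 15) to 15046, scaled by TMM and tested by quasi-likelihood F-tests (R 4.3.3; limma 3.58.1; edgeR 4.0.16) in a model of genotype plus set over all libraries. Set is the number after IVF in the description label, whose meaning is not spelled out. P-values were two-sided and adjusted by Benjamini-Hochberg over all genes, with a threshold of 0.05, in 8 comparisons: the 3 heterozygous groups against wild_type, double_het against each single heterozygote, the interaction, and the effect of each gene averaged over the genotypes of the other. Standard errors came from the F statistic. The fit was tested on simulated counts. CPM values are TMM scaled; residuals used log2 CPM with a prior count of 2. Depth was 23356831 to 50974736 counts per library, which gave the lowest members, Isl1 and Ldb2, 127 to 869 and 85 to 477 counts. Without molecular identifiers, PCR copies of a molecule cannot be set apart.

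The 7 genes, 4 pathway lists and 9 marker lists were chosen with earlier results of these data known. Named beside the 7 were pathway list members past the threshold, Nipbl, and the 6 genes with the highest rho with Isl1. Lmx1a, Rlim, Neurog1 and Mnx1 were named otherwise, and any other gene given with a value is marked where it stands. Values of some marker list genes are not reported here. Alternatives were no set term, a replicate block, DESeq2 1.42.0, RLE size factors, 2 other filters, 2 surrogate variables (sva 3.50.0), Xist as a covariate, and each set and each library left out. The fit without the 4 erythroid-rich libraries and the relations with marker sums were added after seeing the data. Python 3.11.15, scipy 1.17.1 and matplotlib 3.10.9 were used.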

Additional observations from a re-analysis of the deposited data

Results flagged for a closer look

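In 28 groups (7 genes in 4 genotypes), 7 highest values lay far from the nearest other library of their group by Dixon's criterion, which chance meets in about 1 of 20 groups. All 7 met it with RLE size factors too, but with no scaling only 2 did, Ldb2 in Nipbl_het replicate 2 and Lmo4 in Nipbl_het replicate 8; this check was added after seeing the data. The libraries concerned were 4. Wild_type replicate 7, the richest in erythroid RNA at a summed 105601 CPM, had 13.0 CPM of Isl1 (next 8.81) and 195 CPM of Ldb1 (next 153). Nipbl_het replicate 2, so labelled but with Nipbl at 72.4 CPM, had 13.0 CPM of Ldb2 (next 5.70) and 67.6 CPM of Ssbp2 (next 56.4). Double_het replicate 8, also rich in erythroid RNA at 53672 CPM, had 94.5 CPM of Lmo4 (next 69.1) and 192 CPM of Ssbp3 (next 166). Nipbl_het replicate 8 had 115 CPM of Lmo4 (next 77.4). Isl1 in Nipbl_het was higher than wild_type by 0.89 without wild_type replicate 7 (adjusted p = 0.00978, edgeR).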

How the results depend on the processing

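Isl1 was higher in Nipbl_het than in wild_type under every alternative run, by 0.62 to 0.94, and by 0.72 to 0.89 (adjusted p = 0.00978 to 0.0740, edgeR) with 1 library left out, when 32 of 37 fits passed. The call was lost, and the number of members past the threshold fell from 1 to 0, with the replicate number as a block (0.84, adjusted p = 0.0549), without set 1 (0.85), set 2 (0.77) or set 6 (0.62). With 1 library left out that number was 0 or 1. For the averaged Nipbl effect the number fell to 0 without set 2 (0.59) and set 6 (0.57), and it was 1 in all 37 fits with 1 library left out (0.58 to 0.76). The fits that left out a set or a library tested fewer samples. Why the call was lost in some of them, or with the block, was not tested. DESeq2 (0.77, adjusted p = 0.00526), RLE size factors (0.77) and no set term (0.82) kept the call.

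Replicate numbers of the titles do not pair libraries: 17 of 54 same-numbered pairs correlated above 0.1 (median 0.03), and 3 of 36 libraries correlated best with their own number. With the block, 168 genes passed in Nipbl_het against 258 without it.

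Partner changes against wild_type, 234 values over the 13 alternatives other than those with 1 library left out, never passed, and 30 of them took the other sign, all near zero. For Ssbp3 in Isl1_het (0.00) the replicate block, DESeq2, RLE size factors and the fit without erythroid-rich libraries gave −0.01, without set 1 0.00 and without set 2 −0.03; Ssbp2 there gave 0.03 without set 1. In Nipbl_het Ldb2 gave −0.01 (block), −0.06 (surrogate variables), −0.08 (without set 5) and −0.05 (without Nipbl_het replicate 2). Lmo4 gave 0.06 (block), 0.01 (without set 2) and 0.09 (without set 5). Ssbp4 gave −0.10 (no set term), −0.02 (without set 1 or set 6) and −0.06 (without set 2). In double_het Ldb2 gave 0.00 (block, DESeq2, RLE), −0.02 (surrogate variables), −0.05 (without set 1) and −0.11 (without set 5). Ssbp2 gave 0.02 without set 5. Ssbp3 gave −0.02 (no set term), −0.03 (without set 2) and −0.01 (without erythroid-rich libraries). Ssbp4 gave −0.08 (no set term), −0.01 (without set 1) and −0.02 (without set 2). With 1 library left out the ranges were −0.03 to 0.02 for Ssbp3 in Isl1_het, −0.05 to 0.24, −0.15 to 0.03 and −0.03 to 0.07 for Ldb2, Lmo4 and Ssbp4 in Nipbl_het, and −0.09 to 0.08 and −0.01 to 0.07 for Ldb2 and Ssbp3 in double_het.

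Pairs of members correlated past the threshold by Spearman's rho numbered 3, and 1 without Nipbl_het replicate 2; rho of Ldb2 and Ssbp3 was −0.42 (adjusted p = 0.0569, permutation test) with no set term. Genes called varied more than the members: in Nipbl_het from 31 (without set 2) to 1332 (2 surrogate variables) and 459 by DESeq2, in double_het from 67 (without set 5) to 1779, for double_het against Isl1_het from 12 to 763, for the averaged Isl1 effect from 0 to 243 and for the averaged Nipbl effect from 152 to 2057. In Isl1_het the count was 0 to 11, and for double_het against Nipbl_het 0 to 13. Leaving out the library labelled Nipbl_het replicate 2 alone raised the count from 258 to 410 in Nipbl_het, from 391 to 839 in double_het, from 144 to 361 for double_het against Isl1_het, from 26 to 56 for the averaged Isl1 effect and from 605 to 1044 for the averaged Nipbl effect. Leaving out other single libraries lowered it, to 167 in Nipbl_het (without Nipbl_het replicate 9) and 244 in double_het (without double_het replicate 4). The lowest counts were 73 for double_het against Isl1_het and 436 for the averaged Nipbl effect, both without Isl1_het replicate 6. For the averaged Isl1 effect the count ran from 4 (without double_het replicate 5) to 73 (without wild_type replicate 7). The edgeR biological coefficient of variation was 0.27 for Isl1 and 0.24 for Ldb2, against a median of 0.17, at 85 or more counts per library; thinning to lower depths was not run.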
